A study of Mus musculus with 9 samples.

Results

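The genes described here are those of glycolysis and the pentose phosphate pathway, followed in mouse embryonic stem (ES) cells that received a let-7c mimic, a miR-294 mimic or no mimic. The set is a list of 34 genes, chosen by function but with earlier results of these data known. Its members are the probe sets annotated to them. A total of 30 genes had a probe set carrying their symbol alone, and all 30 were among the 13182 genes tested. Gpi1, Eno1 and G6pdx are not analysed here. Gapdh, the glyceraldehyde phosphate dehydrogenase, was annotated only by 25 probe sets that also carry other symbols, so no value is given for it.

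RNA was measured on 9 single-colour arrays, 3 labelled as biological replicates in each of 3 groups. All 3 groups were Dgcr8 -/- ES cells, so the controls lack Dgcr8 too; this protein is needed to process the precursors of most microRNAs. The let-7c and miR-294 groups were transfected with 50 nM of a miRIDIAN mimic by means of Dharmafect 1, and the mock group was transfected without a mimic. All cells were then kept without leukaemia inhibitory factor (LIF) and collected 12 h after transfection. No group received a control mimic, so the effect of an added small RNA as such and that of its sequence cannot be told apart in a comparison with mock. The labels do not say how many ES cell clones were used or whether replicates were separate cultures, so p-values measure the spread between these arrays.

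The 2 mimics differ in their seed, the bases by which a microRNA pairs with its targets. The mature sequences are shown because the seed is what distinguishes the 2 treatments; they are from RefSeq (GRCm38.p6), with the seed, bases 2 to 8, in capitals. miR-294 lies in a cluster of related microRNAs that is highly active in ES cells, and let-7c belongs to a family that accumulates as cells differentiate.
mmu-miR-294-3p (chr7:3220691-3220712, plus strand): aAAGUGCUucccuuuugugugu
mmu-let-7c-5p (chr15:85706616-85706637 and chr16:77599672-77599693, both plus strand): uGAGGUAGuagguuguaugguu
The seeds are AAGUGCU for miR-294 and GAGGUAG for let-7c. Target sites in the transcripts were not searched, so a change in RNA is not read here as direct targeting.

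Glycolysis splits glucose into pyruvate, which either becomes lactate and leaves the cell or enters the mitochondrion for oxidation. The pentose phosphate pathway branches off after the first step; its oxidative arm makes NADPH and its non-oxidative arm exchanges ribose and other sugars with glycolysis. Mouse ES cells rely on both for ATP, building blocks and nucleotides, and Myc and the hypoxia-inducible factor HIF are known activators of many of these genes.

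Values are log2 intensities. Differences are given as log2 ± standard error (SE), and group means with the SD (n = 3). Adjusted p-values come from 1 limma fit of all 9 arrays with Benjamini-Hochberg adjustment over the 13182 genes, and a gene was called changed at an adjusted p under 0.05. Both comparisons with mock use the same 3 mock arrays, so they are not independent of each other. In bulk RNA, fewer cells of a type and less RNA per cell cannot be told apart.

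Within a group the correlation between arrays was at least 0.995, and no array was left out. The ES cell marker list (10 of 10 tested) had a mean between 11.80 and 11.81 on the let-7c arrays and between 12.04 and 12.10 on the miR-294 arrays, against 11.97 to 12.02 on the mock arrays. With let-7c, 6 ES cell markers were lower and 0 higher (14.8% and 13.9% of all genes). With miR-294, 4 were higher and 1 lower (20.7% and 21.1% of all genes). Of 10 feeder fibroblast markers, 5 passed the filter on dim genes. The mean over all 10 was 6.82 to 7.02 with let-7c and 6.82 to 6.90 with miR-294, against 6.73 to 6.82 in mock, near the arrays' own 40th percentiles of 6.84 to 6.90. The part of these markers in the results below was not tested.

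With miR-294, the glucose carrier Slc2a3, the lactate carriers Slc16a1 and Slc16a3, hexokinase Hk2, Pfkfb3, the aldolases Aldoa and Aldoc, Pgam1, pyruvate kinase Pkm, Rpe and Taldo1 were higher than in mock. The pyruvate dehydrogenase kinases Pdk1 and Pdk3, ribose-5-phosphate isomerase Rpia, Pfkp and Eno3 were lower. With let-7c, Aldoc, Pfkfb2, Tpi1 and Ldha were higher and Slc2a3 and Pgam1 lower. Eno2 was also called higher with let-7c, but it was dim in mock and passed the filter mainly through its let-7c arrays. Against mock, single changes were below 1.5-fold with 2 exceptions: Aldoc at 1.53-fold with let-7c and Rpia at 1.71-fold with miR-294.

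In counts, 7 of 30 members (23.3%) passed the threshold in let-7c against mock, 5 higher and 2 lower, while 28.7% of all genes tested passed. In miR-294 against mock it was 16 of 30 (53.3%), 11 higher and 5 lower, against 41.9% of all genes. In let-7c against miR-294 it was 15 of 30 (50%), 8 higher and 7 lower, against 50.8% of all genes. Eno2, which passed the filter mainly through its let-7c arrays, is among the 5 higher with let-7c and the 8 higher between the mimics. In the main fit the let-7c share was below the background. With the replicate number as a block it was 36.7%, against 34.6% of all genes. The miR-294 share was above the background in both fits (with the block 63.3%, against 46.9%). The share between the mimics was near it in both (with the block 53.3%, against 54.9%). No test over the list was run, and the members were chosen with earlier results of these data known. The shares of the members are therefore descriptive only. By direction the background was 13.9% higher and 14.8% lower with let-7c, 20.7% and 21.1% with miR-294, and 26.2% and 24.5% between the mimics. The arrays of the compared groups did not overlap for 12, 18 and 14 of the 30 members, against 43.9%, 53.8% and 57% of all genes. The median difference of the members was 0.07, 0.09 and 0.04 in these 3 comparisons, next to 0.02, 0.02 and -0.01 over all genes tested. Members were called in both directions in all 3 comparisons.

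**Figure D1:**
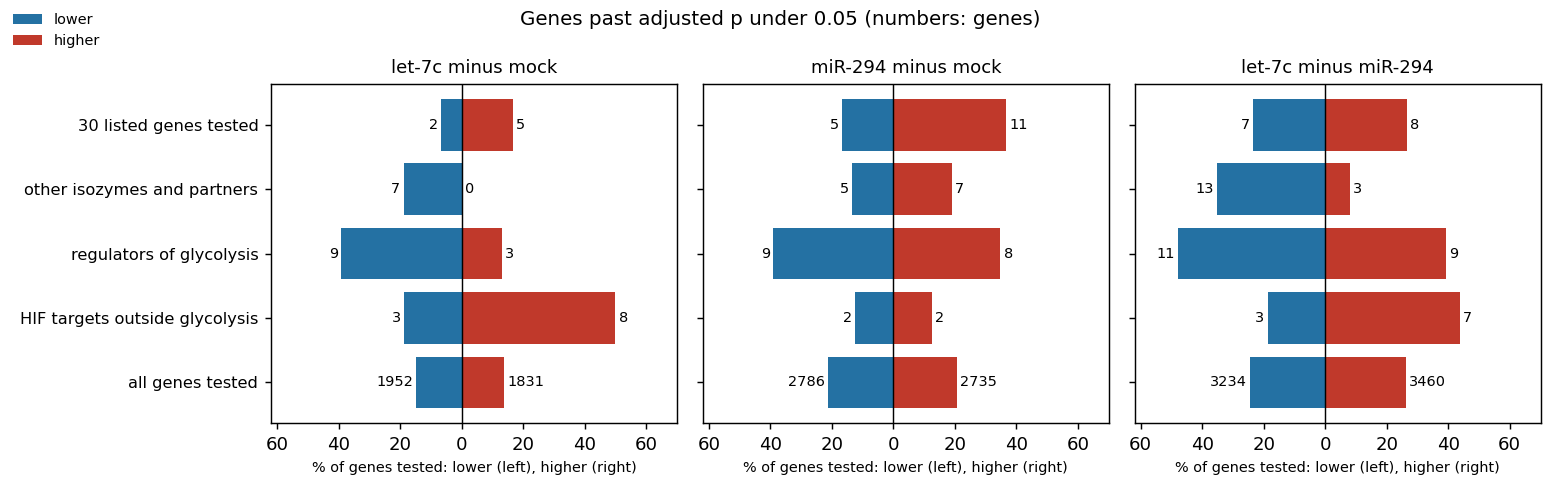
Share of genes past an adjusted p of 0.05 (x axis, percent of genes tested; lower in blue to the left, higher in red to the right) for the listed genes, 3 related gene lists and all genes tested, in each of 3 comparisons; numbers are genes. The listed genes have 5 higher and 2 lower for let-7c minus mock, 11 and 5 for miR-294 minus mock, and 8 and 7 for let-7c minus miR-294.

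Of the 4 carriers across the plasma membrane, 1 was called lower with let-7c and 3 were called higher with miR-294; of all genes, 14.8% were called lower with let-7c and 20.7% higher with miR-294. Slc2a3 encodes the glucose transporter GLUT3 (chr6:122727809-122802363, GRCm38.p6). It read 12.60, 12.62 and 12.64 on the let-7c arrays and 12.98, 13.01 and 13.08 on the miR-294 arrays, against 12.80, 12.87 and 12.91 on the mock arrays. The 3 groups did not overlap, with let-7c below mock and miR-294 above it. The differences were -0.24 ± 0.05 for let-7c (adjusted p = 0.00322) and 0.17 ± 0.05 for miR-294 (adjusted p = 0.0153). The direct difference between the mimics, let-7c minus miR-294, was -0.41 ± 0.05 (adjusted p = 2.6e-05). The miR-294 call was lost on leaving out miR-294 replicate 3 (adjusted p = 0.0609) or without mock replicate 1 (0.0668). Slc2a1, which encodes GLUT1, had differences of 0.17 ± 0.06 with let-7c (adjusted p = 0.0656) and 0.09 ± 0.06 with miR-294 (0.271), and neither passed. The let-7c difference passed in 5 of 18 alternatives (0.0163 to 0.0435), among them on leaving out let-7c replicate 1 (0.0248).

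The lactate carriers were higher with miR-294. Slc16a1 encodes MCT1, which moves lactate and pyruvate with a proton (chr3:104638664-104658462). It read 9.80, 9.96 and 9.88 with let-7c and 10.43, 10.47 and 10.39 with miR-294, against 9.91, 10.10 and 9.96 in mock. Every miR-294 array lay above every other array, while let-7c and mock overlapped. The difference from mock was 0.44 ± 0.06 with miR-294 (1.36-fold, adjusted p = 0.000149) and -0.11 ± 0.06 with let-7c (adjusted p = 0.194). Slc16a3 encodes MCT4, the carrier associated with lactate export (chr11:120948484-120959000). Its values were 9.58, 9.32 and 9.41 with let-7c and 9.83, 9.67 and 9.74 with miR-294, against 9.42, 9.28 and 9.38 in mock. It was 0.39 ± 0.07 higher with miR-294 (adjusted p = 0.00107), and 0.08 ± 0.07 for let-7c did not pass (0.422). Between the mimics, let-7c minus miR-294 was -0.55 ± 0.06 for Slc16a1 (adjusted p = 1.52e-05) and -0.31 ± 0.07 for Slc16a3 (0.00312).

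**Figure D2:**
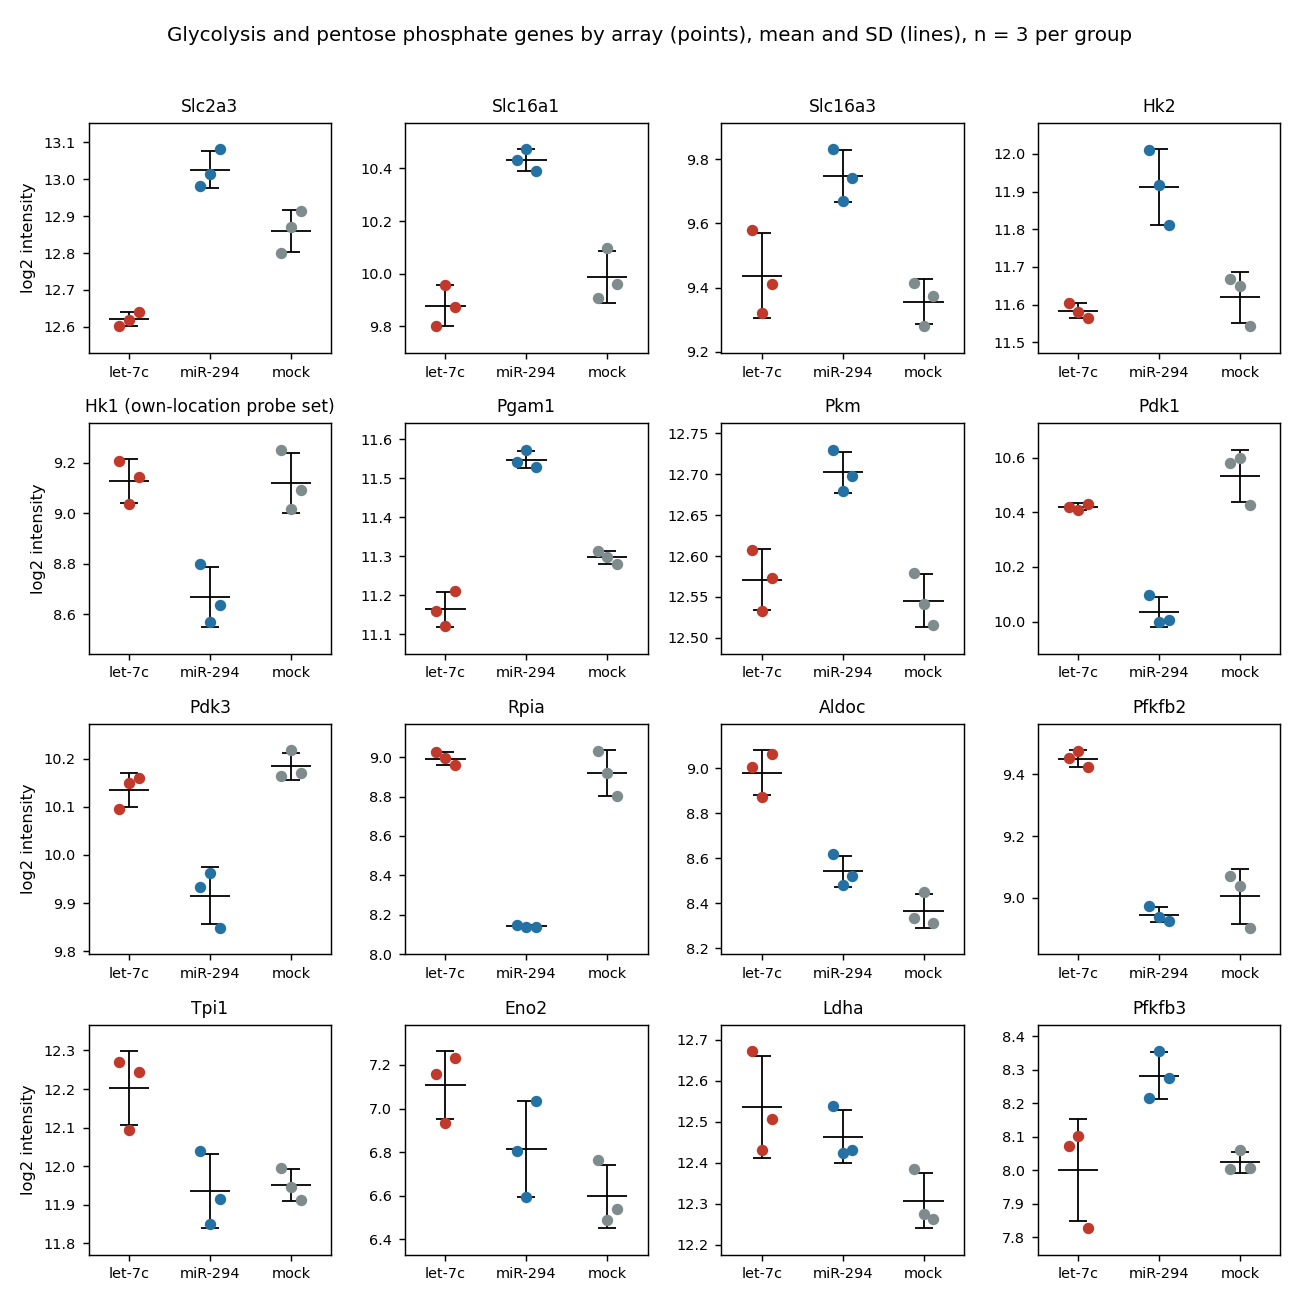
Log2 intensity (y axis, a separate scale per gene) of 16 listed genes on each array (points), with group mean and SD (lines, n = 3), for let-7c, miR-294 and mock. The miR-294 arrays lie above the other 6 for Slc2a3, Slc16a1, Slc16a3, Hk2, Pgam1, Pkm and Pfkfb3, and below them for Hk1 by its own-location probe set, Pdk1, Pdk3 and Rpia.

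The hexokinases, which trap glucose in the cell by phosphorylation, differed in direction with miR-294, with Hk1 read by the probe set at its own location. Hk2, the inducible form bound to mitochondria (chr6:82725025-82774454), read 11.60, 11.58 and 11.56 with let-7c and 12.01, 11.92 and 11.81 with miR-294, against 11.67, 11.65 and 11.54 in mock. The miR-294 arrays were above all others, and the let-7c arrays lay within the mock range. The difference from mock was 0.29 ± 0.06 for miR-294 (adjusted p = 0.00185) and -0.04 ± 0.06 for let-7c (0.674), with let-7c minus miR-294 at -0.33 ± 0.06 (0.000537).

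Hk1, the widely expressed form (chr10:62268855-62379920), had 2 probe sets that read differently. The brighter one, which the rule of highest mean selects, has an ID among those of chromosome 14. Its mean level of 13.36 with let-7c, 13.42 with miR-294 and 13.47 in mock lay in the range of 16 probe sets annotated to both Hk1 and the ribosomal protein gene Rpl17 (12.03 to 13.75). It gave no call in any comparison. The other probe set has an ID among those of chromosome 10, and 96.9% of the probe sets that could be placed lie among such neighbours of their own gene. It read 9.21, 9.03 and 9.14 with let-7c and 8.80, 8.57 and 8.64 with miR-294, against 9.25, 9.02 and 9.09 in mock. All miR-294 arrays were lower than all others. In a fit with the probe set at each gene's own location, chosen after seeing the data, Hk1 was -0.45 ± 0.08 with miR-294 (adjusted p = 0.000693) and 0.01 ± 0.08 with let-7c (0.947), and 0.46 ± 0.08 for let-7c minus miR-294 (0.000371). With it the members called become 17 in miR-294 against mock and 16 between the mimics, since Hk1 is added. No share of all genes from that fit is given here, so these counts are not set against a background.

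Of the phosphofructokinases, which commit sugar to glycolysis, only the platelet form Pfkp passed, and only in miR-294 against mock. Pfkp read 10.57, 10.38 and 10.39 with miR-294, against 10.78, 10.61 and 10.61 in mock, a difference of -0.22 ± 0.07 (adjusted p = 0.0264). The call was lost on leaving out miR-294 replicate 2 (0.0909), miR-294 replicate 3 (0.0861) or mock replicate 1 (0.105). Pfkl, the liver form, varied most within groups, with values of 10.65, 10.29 and 10.43 with let-7c and 10.67, 10.33 and 10.42 with miR-294, against 10.43, 10.17 and 10.12 in mock. Its differences of 0.22 ± 0.11 (adjusted p = 0.169) and 0.24 ± 0.11 (0.113) did not pass. The miR-294 difference passed on leaving out mock replicate 1 (0.0393). With the replicate number as a block, both let-7c (0.00618) and miR-294 (0.00259) passed. For Pfkm, the muscle form, the differences were 0.07 ± 0.07 (0.479) and -0.08 ± 0.07 (0.376). Between the mimics, Pfkm passed on leaving out let-7c replicate 1 (0.0304) and Pfkp on leaving out miR-294 replicate 1 (0.0323). Both also passed with quantile normalization (0.0308 and 0.0353), and Pfkm with a changed prior (0.0477) and with the replicate block (0.0111).

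The PFKFB enzymes make and remove fructose 2,6-bisphosphate, the activator of phosphofructokinase, and each mimic raised a different one. Pfkfb2 (chr1:130689043-130729253) read 9.45, 9.48 and 9.43 with let-7c and 8.97, 8.94 and 8.93 with miR-294, against 9.07, 9.04 and 8.90 in mock. The let-7c arrays stood above all others. The difference from mock was 0.45 ± 0.05 with let-7c (1.36-fold, adjusted p = 0.00011) and -0.06 ± 0.05 with miR-294 (0.374). Pfkfb3, the form with the highest kinase activity of the family, read 8.07, 8.10 and 7.83 with let-7c and 8.22, 8.36 and 8.28 with miR-294, against 8.003, 8.06 and 8.006 in mock. It rose with miR-294 by 0.26 ± 0.07 (adjusted p = 0.012), while let-7c gave -0.02 ± 0.07 (0.836). The direct difference, let-7c minus miR-294, was 0.51 ± 0.05 for Pfkfb2 (8.54e-06) and -0.28 ± 0.07 for Pfkfb3 (0.00548). Pfkfb4 was called only between the mimics, at 0.13 ± 0.05 (0.047), a call that ended in 12 of 17 alternatives, including without any single array other than let-7c replicate 2 (0.0635 to 0.182).

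Aldolase splits fructose 1,6-bisphosphate, and its C form was the member that moved most with let-7c. Aldoc (chr11:78323073-78327781) read 9.01, 8.87 and 9.06 with let-7c and 8.62, 8.48 and 8.52 with miR-294, against 8.33, 8.45 and 8.31 in mock. The groups did not overlap, with let-7c highest and mock lowest. Aldoc was 0.61 ± 0.06 above mock with let-7c (adjusted p = 5.42e-05) and 0.18 ± 0.06 above it with miR-294 (0.0419), and let-7c minus miR-294 was 0.44 ± 0.06 (0.000123). The miR-294 call was lost on leaving out miR-294 replicate 1 (0.134) or 3 (0.0713) and without mock replicate 1 (0.114) or 3 (0.129), and with no filter (0.0753). Aldoa, the main aldolase of muscle and growing cells, read 13.07, 12.97 and 12.99 with miR-294, against 12.91, 12.73 and 12.74 in mock (0.22 ± 0.07, adjusted p = 0.0257). That call was lost on leaving out miR-294 replicate 1 (0.0795), mock replicate 2 (0.0926) or mock replicate 3 (0.0847), and after quantile normalization (0.0754).

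In the triose steps of glycolysis, Tpi1 rose with let-7c and Pgam1 with miR-294. Tpi1, which interconverts the triose phosphates (chr6:124810586-124814158), read 12.27, 12.09 and 12.24 with let-7c and 12.04, 11.85 and 11.91 with miR-294, against 12.00, 11.95 and 11.91 in mock. The let-7c arrays were above all the others. Tpi1 was 0.25 ± 0.06 higher with let-7c (adjusted p = 0.012), with -0.02 ± 0.06 for miR-294 (0.849) and 0.27 ± 0.06 for let-7c minus miR-294 (0.00378). Pgk1, which makes the first ATP of the pathway, had differences of 0.08 ± 0.07 and 0.09 ± 0.07 (0.438 and 0.351) and passed in no comparison. Its brightest probe set has an ID among those of chromosome 12, and the Pgk1 probe set at its own location, on chromosome X, gave 0.09 with each mimic.

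Pgam1 moves the phosphate of phosphoglycerate (chr19:41911871-41918665). It read 11.16, 11.12 and 11.21 with let-7c and 11.54, 11.57 and 11.53 with miR-294, against 11.31, 11.30 and 11.28 in mock. The groups did not overlap, in the same order as for Slc2a3. The miR-294 difference was 0.25 ± 0.04 (adjusted p = 0.000715) and the difference between the mimics -0.38 ± 0.04 (1.81e-05). The let-7c difference of -0.13 ± 0.04 (0.0367) was less firm: it was lost on leaving out let-7c replicate 1 (0.0725) or 2 (0.107), without mock replicate 1 (0.102), 2 (0.0928) or 3 (0.071), with no filter (0.0809), with quantile normalization (0.176) and with the mean of its probe sets (0.0649).

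The enolases release water to form phosphoenolpyruvate. Eno2, the neuronal form, was dim: it stood above its array's 40th percentile on 4 of 9 arrays, and was tested because of its higher groups, so its call carries little weight. It read 7.16, 6.93 and 7.23 with let-7c and 6.81, 6.60 and 7.04 with miR-294, against 6.76, 6.49 and 6.54 in mock. Only let-7c against mock did not overlap, with 0.51 ± 0.11 (adjusted p = 0.00641). Between the mimics it was 0.30 ± 0.11 (0.0473), a call that was lost on leaving out let-7c replicate 1 (0.117) or 3 (0.162), miR-294 replicate 1 (0.0937) or 2 (0.187), or mock replicate 2 (0.0518) or 3 (0.0585), and in 4 settings that keep all arrays (0.0503 to 0.0774). Eno3, the muscle form, read 9.06, 8.98 and 8.89 with miR-294, against 9.27, 9.17 and 9.17 in mock, and fell by 0.22 ± 0.06 (adjusted p = 0.00763). With let-7c its difference was -0.15 ± 0.06 (0.0647), which passed with the stricter filter (0.0417) and with the replicate number as a block (0.0382).

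Pyruvate kinase Pkm, the last step (chr9:59656576-59679372), read 12.61, 12.53 and 12.57 with let-7c and 12.73, 12.68 and 12.70 with miR-294, against 12.58, 12.54 and 12.52 in mock. The miR-294 arrays were above all others by a small margin. The difference from mock was 0.16 ± 0.04 (adjusted p = 0.0125). A further Pkm probe set gave 0.17 (0.0125 in a limma fit of every probe set) and no call between the mimics (-0.11, 0.0637). Its ID is among those of chromosome 5, while Pkm is on chromosome 9, so its value is uncertain. For the probe set in use, let-7c minus miR-294 was -0.13 ± 0.04 (0.0236). That call was lost on leaving out let-7c replicate 2 (0.0789) or 3 (0.052) and without miR-294 replicate 1 (0.0675) or 3 (0.0503). The call also ended with no filter (0.0531) and with quantile normalization (0.128), and Pkm splice forms were not told apart.

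A pair of steps decides the fate of pyruvate, its reduction to lactate and its entry into the citrate cycle. Lactate dehydrogenase Ldha (chr7:46842274-46855627) read 12.67, 12.43 and 12.51 with let-7c and 12.54, 12.42 and 12.43 with miR-294, against 12.39, 12.28 and 12.26 in mock. Both mimic groups lay above mock. The difference was 0.23 ± 0.07 with let-7c (adjusted p = 0.0236) and 0.16 ± 0.07 with miR-294 (0.0786), with 0.07 ± 0.07 between them (0.395). The miR-294 difference passed on leaving out let-7c replicate 1 (0.0353), with a changed prior (0.0419) and with the replicate number as a block (0.0142). The let-7c call was lost on leaving out let-7c replicate 1 (0.0761), mock replicate 2 (0.0782) or mock replicate 3 (0.0791). Ldhb, the form that favours pyruvate, had differences of 0.06 ± 0.05 and 0.05 ± 0.05 (0.373 and 0.396).

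Pyruvate dehydrogenase kinases switch off the enzyme that feeds pyruvate to the citrate cycle, and both listed forms fell with miR-294. Pdk1 (chr2:71873215-71903858) read 10.42, 10.41 and 10.43 with let-7c and 10.097, 10.0002 and 10.006 with miR-294, against 10.58, 10.60 and 10.43 in mock. Pdk3 (chrX:93764616-93832150) read 10.09, 10.15 and 10.16 with let-7c and 9.93, 9.96 and 9.85 with miR-294, against 10.16, 10.22 and 10.17 in mock. For both genes the miR-294 arrays lay below all the others. Pdk1 fell by 0.50 ± 0.05 (1.41-fold, adjusted p = 3.14e-05) and Pdk3 by 0.27 ± 0.05 (0.000796). With let-7c the differences were -0.11 ± 0.05 (0.139, and 0.0404 on leaving out mock replicate 3) and -0.05 ± 0.05 (0.454), and let-7c minus miR-294 was 0.39 ± 0.05 (0.000109) and 0.22 ± 0.05 (0.00197).

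**Figure D3:**
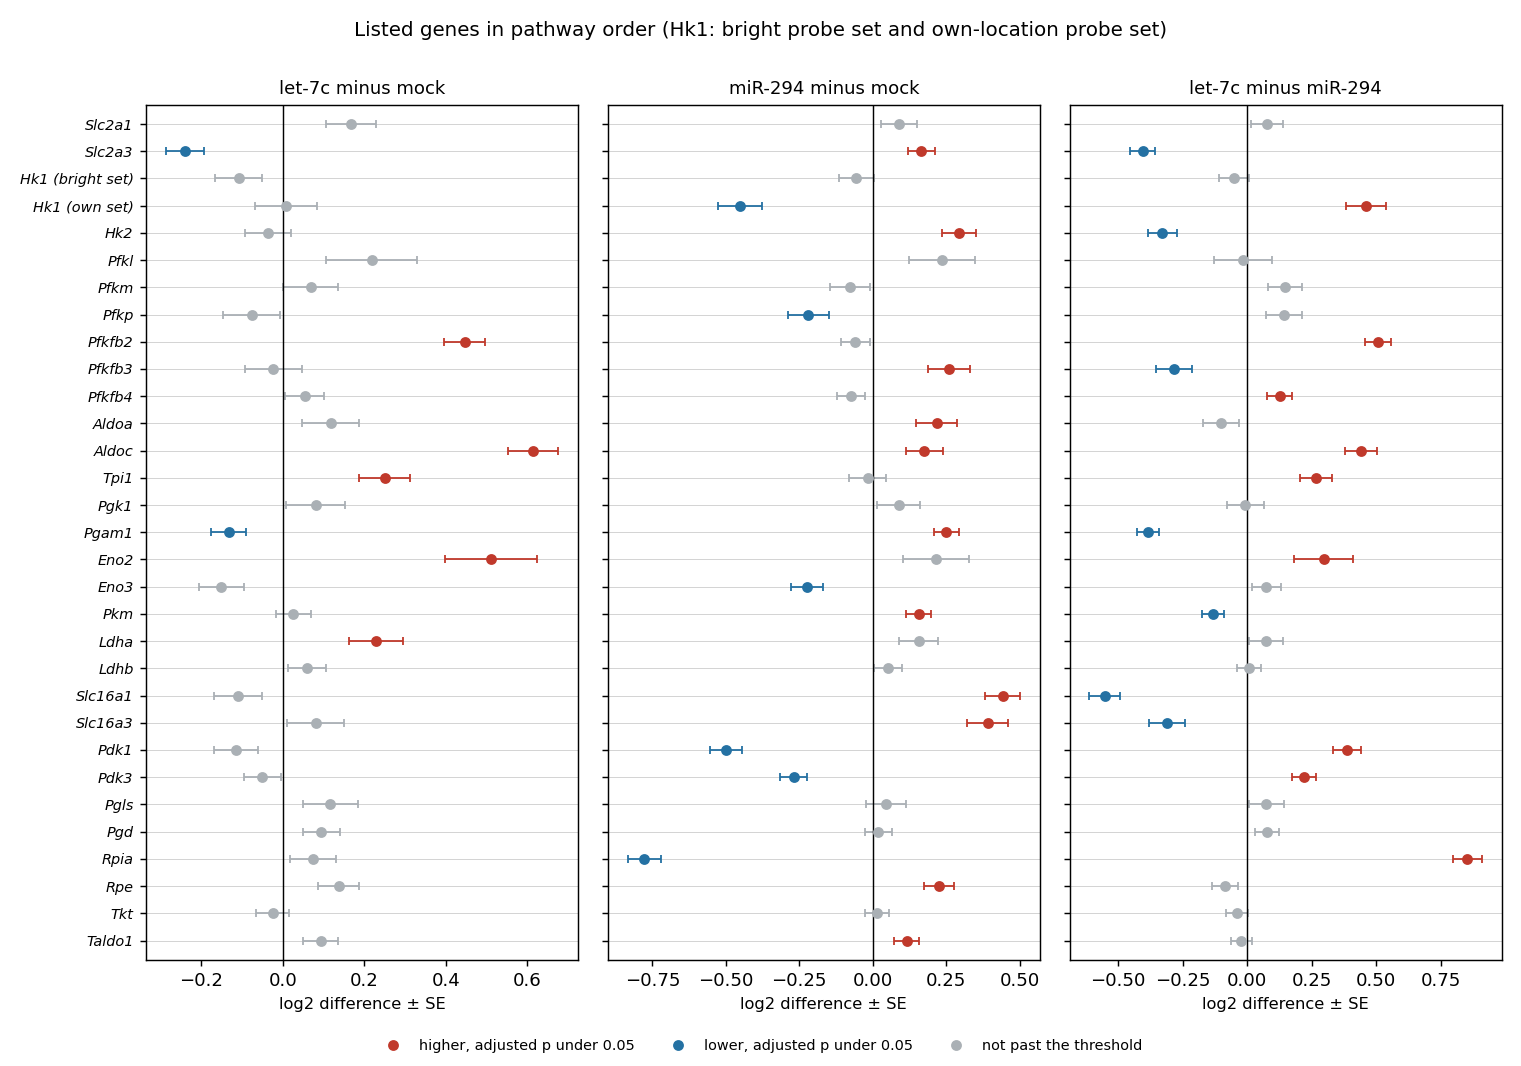
Log2 difference (x axis, ± SE) of the listed genes in pathway order for each mimic against mock and for let-7c minus miR-294; colour marks an adjusted p under 0.05 (red higher, blue lower), and the x scale differs between panels. Rpia at -0.78 for miR-294 minus mock and Aldoc at 0.61 for let-7c minus mock lie farthest from 0 in the comparisons with mock, and Rpia at 0.85 for let-7c minus miR-294.

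Of the pentose phosphate genes, 0 of 6 were called with let-7c, while 28.7% of all genes were (limma; Rpe at 0.14 ± 0.05 came closest, adjusted p = 0.0643, and 2 had an unadjusted p under 0.05). Rpe passed in 5 of 18 alternatives (0.0228 to 0.0455), among them on leaving out let-7c replicate 3, and Pgd in 2 (0.0321 and 0.0398). With miR-294, 3 of 6 were called, against 41.9% of all genes. The oxidative enzymes Pgls, the lactonase, and Pgd, which releases carbon dioxide and NADPH, did not pass in any comparison. Their differences were 0.12 ± 0.07 and 0.09 ± 0.05 with let-7c, and 0.04 ± 0.07 and 0.02 ± 0.05 with miR-294. The 95% intervals for miR-294 reached -0.11 to 0.19 for Pgls and -0.08 to 0.12 for Pgd.

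In the non-oxidative arm, Rpia, which forms ribose 5-phosphate (chr6:70765720-70792175), showed the widest gap of all members. It read 9.02, 8.99 and 8.96 with let-7c and 8.15, 8.14 and 8.14 with miR-294, against 9.03, 8.92 and 8.80 in mock. The miR-294 values nearly coincided and lay far below both other groups, which overlapped. Rpia fell by 0.78 ± 0.06 with miR-294 (adjusted p = 1.76e-06), and its linear intensity fell by 41.7%. With let-7c it was 0.07 ± 0.06 (0.356), and let-7c minus miR-294 was 0.85 ± 0.06 (4.33e-07). Rpe, the epimerase that acts on the same substrate, moved the other way: 10.67, 10.64 and 10.55 with miR-294, against 10.43, 10.39 and 10.37 in mock (0.22 ± 0.05, 0.00439).

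The 2 enzymes that shuttle carbon back to glycolysis had small differences. Transketolase Tkt was -0.02 ± 0.04 with let-7c and 0.01 ± 0.04 with miR-294 (0.693 and 0.794), with 95% intervals of -0.12 to 0.07 and -0.08 to 0.11. Transaldolase Taldo1 read 9.51, 9.53 and 9.48 with miR-294, against 9.43, 9.41 and 9.34 in mock (0.12 ± 0.04, adjusted p = 0.0463). That call was lost on leaving out any 1 of the arrays except let-7c replicate 1 (0.0568 to 0.159) and with no filter (0.0929).

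Genes next to the pathway were followed as 37 tested isozymes and partners outside the 34. With let-7c, 0 were higher and 7 lower (18.9%, against 28.7% of all genes); with miR-294, 7 were higher and 5 lower (32.4%, against 41.9%). Mpc1, a subunit of the carrier that takes pyruvate into the mitochondrion, read 9.55, 9.57 and 9.63 with let-7c and 8.22, 8.13 and 8.12 with miR-294, against 9.44, 9.52 and 9.33 in mock. All miR-294 arrays stood below all others, with a difference from mock of -1.27 ± 0.06 (adjusted p = 4.76e-08). Its single probe set has an ID among those of chromosome 12, where the pseudogene Mpc1-ps lies, while Mpc1 is on chromosome 17, so the 2 sequences may share this signal and the value is uncertain. Pdk4, a further pyruvate dehydrogenase kinase, was lower with both mimics: -0.81 ± 0.07 with miR-294 (4.47e-06) and -0.24 with let-7c (0.0205, lost without let-7c replicate 1 at 0.0601 or 3 at 0.0619, or mock replicate 1 at 0.0787). Prps1, which makes the nucleotide precursor PRPP from ribose 5-phosphate, read 11.29, 11.35 and 11.31 with miR-294, against 10.76, 10.91 and 10.74 in mock (0.51 ± 0.06, 3.52e-05).

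Tigar, a phosphatase that lowers fructose 2,6-bisphosphate, was 0.30 ± 0.06 higher with miR-294 (0.00275). Bpgm, which makes 2,3-bisphosphoglycerate, was 0.32 ± 0.09 higher (0.0172), a call that was lost on leaving out miR-294 replicate 1 (0.0547) or mock replicate 1 (0.0661). Gpd1, the cytosolic glycerol phosphate dehydrogenase, was 0.20 ± 0.05 higher (0.0122, and 0.053 without mock replicate 1). Pdp2, a phosphatase that reactivates pyruvate dehydrogenase, gave -0.22 (0.0288), and H6pd, the hexose phosphate dehydrogenase of the endoplasmic reticulum, -0.22 (0.0476). Both were weak, since 7 alternatives ended the Pdp2 call and 8 that of H6pd. The Pdp2 call was lost on leaving out miR-294 replicate 1 (0.0773) or 3 (0.112) or any mock array (0.0577 to 0.0721), and the H6pd call on leaving out let-7c replicate 3 (0.0627), miR-294 replicate 1 (0.0682) or 3 (0.172), or mock replicate 1 or 2 (both 0.146).

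With let-7c, Pdpr, the regulatory subunit of a pyruvate dehydrogenase phosphatase, fell most in the partner list. It read 8.51, 8.52 and 8.55 with let-7c and 8.88, 8.87 and 8.85 with miR-294, against 9.10, 9.08 and 9.03 in mock. All arrays of both mimics lay below mock. The let-7c difference was -0.54 ± 0.04 (adjusted p = 8.17e-06). Pdhx, a component of the pyruvate dehydrogenase complex, was -0.26 ± 0.07 (0.0197, lost without let-7c replicate 2 at 0.0517 or 3 at 0.0723, or mock replicate 2 at 0.0776). H6pd was -0.24 with let-7c (0.0416, lost without let-7c replicate 2 at 0.135 or 3 at 0.0958, or mock replicate 1 at 0.126 or 2 at 0.133). Between the mimics, let-7c minus miR-294 was 1.42 for Mpc1 (1.47e-08), 0.57 for Pdk4 (2.83e-05), -0.62 for Prps1 (4.06e-06), -0.35 for Tigar (0.000549), -0.35 for the ADP-dependent glucokinase Adpgk (0.000589) and -0.34 for Pdpr (3.4e-05). The phosphoglucomutase Pgm1 was 0.25 (0.0356), lost without let-7c replicate 1 (0.104) or 3 (0.0798) or miR-294 replicate 2 (0.14) or 3 (0.122).

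**Figure D4:**
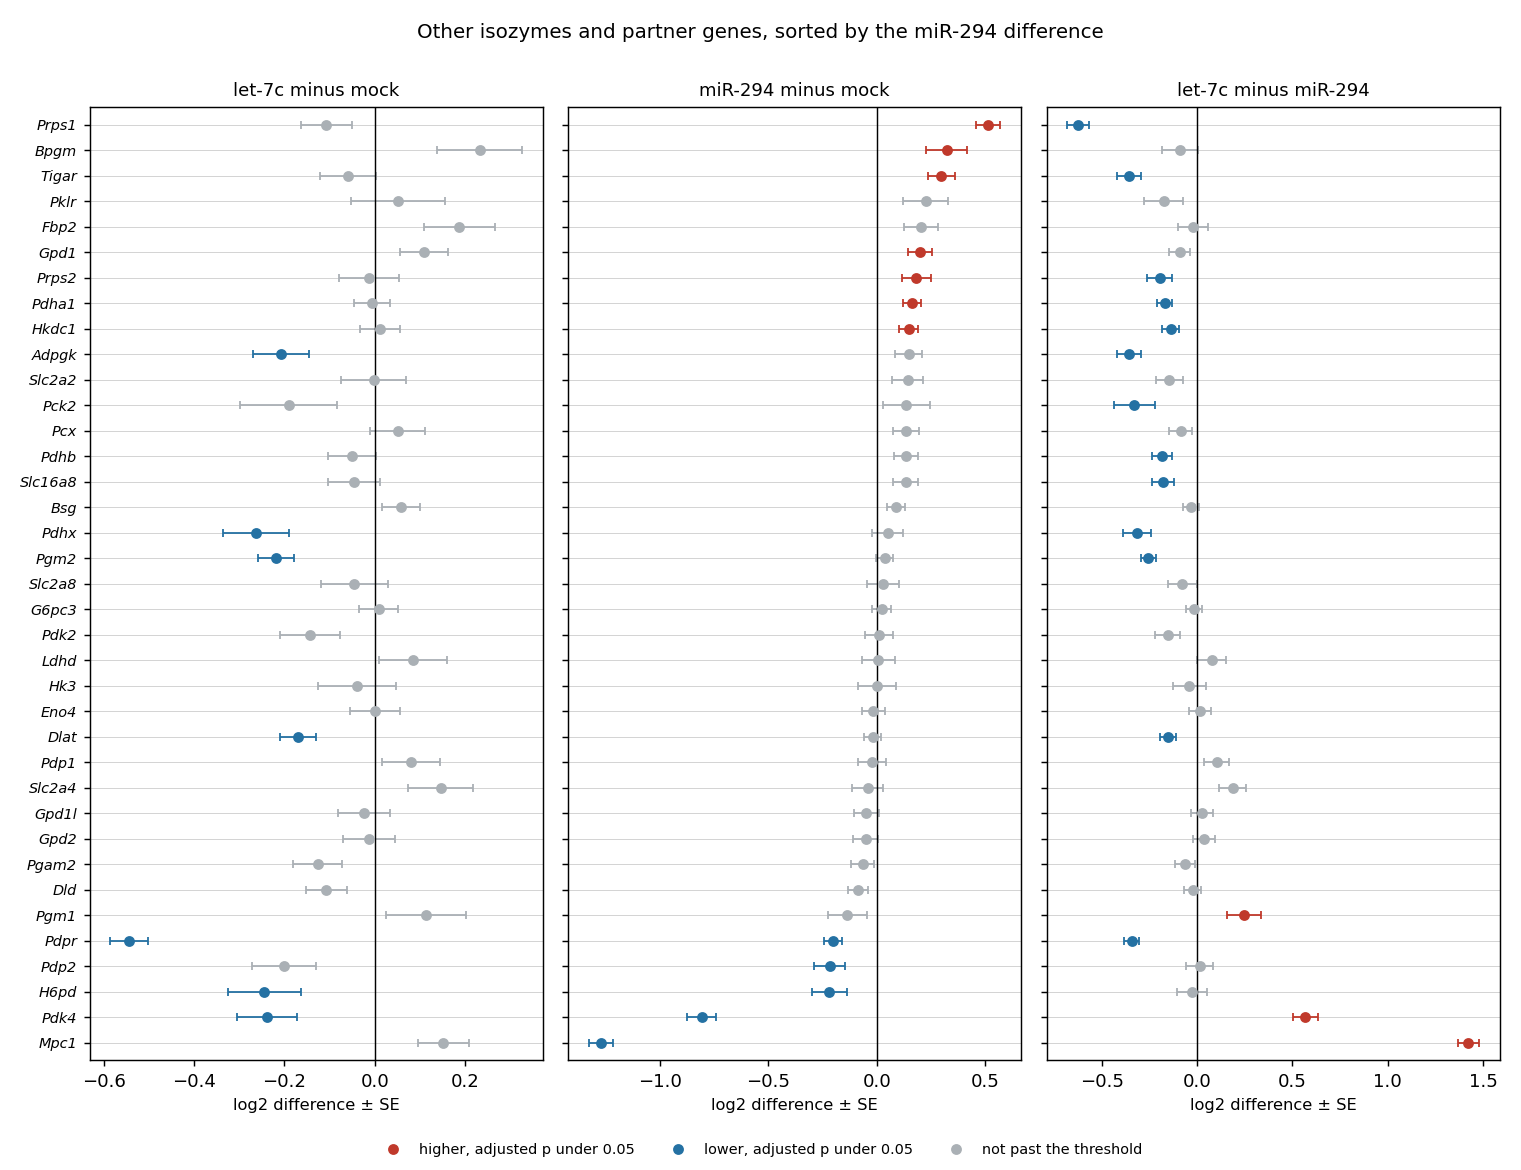
Log2 difference (x axis, ± SE) of 37 isozymes and partner genes outside the 34, sorted by miR-294 minus mock, in 3 comparisons; red and blue mark an adjusted p under 0.05, and the x scale differs between panels. Mpc1 (-1.27) and Pdk4 (-0.81) are lowest with miR-294 and Pdpr (-0.54) with let-7c.

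Known regulators of glycolysis changed in both groups. With let-7c, 12 of 23 tested were called (3 higher, 9 lower, 52.2% against 28.7%). With miR-294 it was 17 of 23 (8 higher, 9 lower, 73.9% against 41.9%). This list was chosen with earlier results of these data known, so its shares above the background are descriptive only. Myc, an activator of glycolytic genes, read 8.50, 8.87 and 8.92 with let-7c and 9.87, 10.16 and 9.89 with miR-294, against 9.05, 9.31 and 9.16 in mock. The groups did not overlap, with let-7c below mock and miR-294 above it. Myc was 0.80 ± 0.11 higher with miR-294 (adjusted p = 0.000234) and -0.42 with let-7c (0.0191), and the let-7c call was lost on leaving out let-7c replicate 1 (0.0594) or mock replicate 2 (0.0767). Mycn, its relative, read 10.07, 10.06 and 10.11 with let-7c and 11.39, 11.43 and 11.45 with miR-294, against 11.22, 11.22 and 11.27 in mock, differences of -1.16 (4.87e-08) and 0.19 (0.00401).

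The RNA-binding proteins Lin28a and Lin28b block let-7 maturation and are known to promote glycolysis. Lin28a was 1.20 ± 0.15 higher with miR-294 (9.09e-05) and -0.59 with let-7c (0.0138, and 0.0534 without let-7c replicate 1). Lin28b was lower with both, -0.69 with let-7c (3.07e-06) and -0.18 with miR-294 (0.00658). Txnip, which restrains glucose uptake, read 11.99, 12.04 and 12.12 with let-7c and 11.29, 11.20 and 11.36 with miR-294, against 11.84, 11.89 and 11.87 in mock. It fell by 0.58 ± 0.05 with miR-294 (8.32e-06). The let-7c difference was 0.18 (0.0223) and was lost without let-7c replicate 3 (0.083), mock replicate 1 (0.0718) or mock replicate 3 (0.0545). Its relative Arrdc4, which also limits glucose uptake, was 0.33 ± 0.08 higher with miR-294 (0.0097).

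In the HIF system, Hif1an, the hydroxylase that inhibits HIF, was lower with both mimics. It read 8.72, 9.01 and 8.91 with let-7c and 8.91, 9.01 and 8.97 with miR-294, against 9.98, 10.15 and 10.16 in mock. The differences were -1.22 ± 0.08 (2.44e-06) and -1.14 (9.77e-07), and the mimics differed by -0.08, which did not pass (0.407). Hif1a itself was -0.06 with let-7c (0.417) and -0.19 ± 0.05 with miR-294 (0.00858). The prolyl hydroxylase Egln2, which marks HIF for decay, was 0.27 higher with miR-294 (0.00514). With let-7c, Egln1, of the same family, was 0.18 higher (0.0167, and 0.0547 without mock replicate 2) and the HIF partner Arnt 0.14 higher (0.0387), a call lost without any 1 of the let-7c or mock arrays or without miR-294 replicate 2 (0.0503 to 0.139), and with no filter (0.0822).

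Other regulators fell with miR-294. Prkaa1, the catalytic subunit of the energy sensor AMPK, read 9.47, 9.40 and 9.42 with miR-294, against 10.59, 10.63 and 10.62 in mock (-1.18 ± 0.04, adjusted p = 1.9e-08). Mbd2, a methyl-DNA binding protein, read 9.58, 9.62 and 9.60, against 10.49, 10.62 and 10.64 in mock (-0.98 ± 0.06, 5.97e-07), with 0.05 for let-7c (0.562). Akt1, a kinase that promotes glucose uptake, was -0.67 (5.25e-06). Between the mimics, let-7c minus miR-294 was 1.21 for Prkaa1 (9.39e-09), 1.03 for Mbd2 (1.8e-07), 0.77 for Txnip (5.12e-07) and 0.76 for Akt1 (9.02e-07). It was -1.79 for Lin28a (2.37e-06), -1.35 for Mycn (3.13e-09), -1.21 for Myc (5.49e-06) and -0.56 for Esrrb, an orphan nuclear receptor (3.76e-06).

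HIF targets outside glycolysis were counted beside the pathway, because many glycolytic genes are known HIF targets. Among the members, only some such targets are named here, and they differed with let-7c. Aldoc, Tpi1 and Ldha were called higher and Slc2a3 lower, while Hk2 (-0.04), Pfkfb3 (-0.02), Pgk1 (0.08) and Pdk1 (-0.11) did not pass. Of the targets outside glycolysis, 8 of 16 tested were higher and 3 lower with let-7c (68.8%, against 28.7% of all genes). With miR-294, 2 were higher and 2 lower (25%, against 41.9%). This list too was chosen with earlier results of these data known, so its shares are descriptive only. With the probe set at each gene's own location the counts were 7 and 2 of 16 with let-7c and 1 and 2 of 16 with miR-294. No share of all genes from that fit is set beside them. Ndrg1, a stress-induced protein, read 10.02, 9.80 and 9.86 with let-7c and 9.74, 9.68 and 9.66 with miR-294, against 9.30, 9.25 and 9.24 in mock. The 3 groups did not overlap, with differences of 0.63 ± 0.06 (2.92e-05) and 0.43 (0.000156). Bnip3, a mitochondrial protein of mitophagy, read 10.39, 10.10 and 10.03 with let-7c and 9.87, 9.39 and 9.53 with miR-294, against 9.63, 9.54 and 9.51 in mock. Only the let-7c arrays stood apart, with 0.62 ± 0.12 (0.00264), and miR-294 gave 0.04 (0.809). This Bnip3 probe set has an ID among those of chromosome 14 while the gene is on chromosome 7, and the probe set at the gene itself gave 0.47 ± 0.09 (0.00291) and 0.07 ± 0.09 (0.553).

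Anxa2, a membrane-binding protein, was 0.68 ± 0.11 higher with let-7c (0.00103). Ddit4, an inhibitor of mTORC1, was 0.37 higher (0.015), a call lost without let-7c replicate 1 (0.0581) or 3 (0.0504) or mock replicate 3 (0.0522). Ero1a, an oxidase of protein folding, fell with let-7c by 0.48 ± 0.08 (0.000908) and the histone demethylase Kdm3a by 0.26 (0.00246). Ak4, an adenylate kinase, was -0.18 (0.0164) but lost its call with the probe set at its own location (0.619), and on leaving out let-7c replicate 2 (0.0507) or 3 (0.0612) or mock replicate 2 (0.0615). Of the 16 targets tested, 8 were thus higher and 3 lower with let-7c, where 13.9% and 14.8% of all genes were. Their median difference was 0.15, next to 0.02 over all genes tested.

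With miR-294, Mxi1, a Myc antagonist, fell by 0.54 (1.79e-05) and P4ha1 by 0.33 (0.00585). P4ha1 was 0.34 higher with let-7c than in mock (limma adjusted p = 0.00748). Higd1a, a mitochondrial protein, was 0.27 higher with miR-294 (0.00532, and 0.056 with the probe set at its own location). Between the mimics, let-7c minus miR-294 was 0.92 for Anxa2 (3.34e-05), 0.67 for P4ha1 (2.62e-05), 0.58 for Bnip3 (0.0015) and 0.57 for Mxi1 (6.02e-06), and -0.39 for Ero1a (0.00118) and -0.24 for Kdm3a (0.00131). Ak4 was -0.16 (0.0133), lost with the probe set at its own location (0.122) and without let-7c replicate 3 (0.0532) or miR-294 replicate 2 (0.0538).

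The promoters of 2 genes that rose with miR-294 and of 2 that rose with let-7c are shown because these rises kept their call in every alternative and their motifs can be compared with all promoters. Each spans 300 bases around a start site, most of them before it, 5′ to 3′ on the gene's strand (RefSeq, GRCm38.p6). Capitals mark ACGTG, the core of HIF sites, on either strand (CACGT as read), and an E-box CACGTG, bound by Myc, where the 2 overlap. Other rises also kept their call in every alternative, among them Slc16a3 with miR-294 (2 ACGTG) and Tpi1 with let-7c (0 ACGTG). A further Aldoc promoter holds 0 ACGTG, and further Pfkfb2 promoters hold 0 and 1 ACGTG and 0 CACGTG. The promoters shown all hold ACGTG, so they do not stand for the rest.
Slc16a1 (chr3:104638414-104638713, plus strand): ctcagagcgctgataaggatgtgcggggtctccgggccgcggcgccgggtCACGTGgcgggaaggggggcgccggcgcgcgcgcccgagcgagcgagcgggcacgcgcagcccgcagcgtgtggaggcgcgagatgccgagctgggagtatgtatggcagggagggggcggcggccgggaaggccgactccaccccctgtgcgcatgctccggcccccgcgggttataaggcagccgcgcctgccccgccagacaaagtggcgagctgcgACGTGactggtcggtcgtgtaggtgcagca
Hk2 (chr6:82774405-82774704, minus strand): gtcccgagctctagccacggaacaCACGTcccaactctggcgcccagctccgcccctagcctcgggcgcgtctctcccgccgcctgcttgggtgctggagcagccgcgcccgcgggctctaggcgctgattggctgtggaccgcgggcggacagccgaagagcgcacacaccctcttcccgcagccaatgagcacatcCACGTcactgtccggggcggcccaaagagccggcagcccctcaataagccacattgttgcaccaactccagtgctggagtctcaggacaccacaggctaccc
Aldoc (chr11:78322823-78323122, plus strand): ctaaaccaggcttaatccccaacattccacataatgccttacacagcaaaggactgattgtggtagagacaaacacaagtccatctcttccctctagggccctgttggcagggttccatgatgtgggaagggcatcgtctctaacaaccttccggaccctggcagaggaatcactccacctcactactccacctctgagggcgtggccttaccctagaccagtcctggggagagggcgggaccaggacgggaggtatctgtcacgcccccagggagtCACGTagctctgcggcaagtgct
Pfkfb2 (chr1:130715772-130716071, minus strand): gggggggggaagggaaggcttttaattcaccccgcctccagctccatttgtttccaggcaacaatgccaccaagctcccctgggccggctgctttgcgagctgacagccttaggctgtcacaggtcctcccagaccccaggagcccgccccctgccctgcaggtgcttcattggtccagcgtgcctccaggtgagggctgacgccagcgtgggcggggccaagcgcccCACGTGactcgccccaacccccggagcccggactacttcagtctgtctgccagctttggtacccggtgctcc
Among the 33 listed genes with a promoter entry, ACGTG was in a promoter of 17 (51.5%), against 21.8% of all 27025 genes with an entry and 23.2% of the 17492 protein-coding ones. GCGTG, the other form of the HIF core, was in 24 (72.7%, against 35.2% and 41.4%). CACGTG was in 5 (15.2%, against 8.1% and 8.9%), namely Ldha, Pfkfb2, Pfkfb3, Pfkm and Slc16a1. Listed genes had more entries per gene (49 for 33) than all genes (32851 for 27025), which raises shares per gene. Counted per promoter, the shares were 42.9% against 19.6% for ACGTG, 61.2% against 32.4% for GCGTG and 10.2% against 7.2% for CACGTG. Of the 5 genes with CACGTG, Slc16a1 and Pfkfb3 were called higher with miR-294 and Ldha and Pfkfb2 with let-7c. Pfkm had no call in the main fit. All miR-294 arrays of Ldha also lay above mock (0.16, limma adjusted p = 0.0786), and its let-7c call was lost without some single arrays. The part of the motif in these changes was not tested. A match is a stretch of letters in this window and not a measured binding site, and base composition was not matched.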

How the data were processed

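RNA from 9 samples was read on a 1-colour array. The deposited table holds log2 intensities of 35557 probe sets; GCRMA is named in the submitters' processing notes, with no version or settings given in the sources used here. No header states the scale, so log2 was taken from the range of the values (2.54 to 15.0). The deposited values were used without further normalization. Array medians were 7.36 to 7.41. Precision is limited by the number of arrays.

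Gene names came from the platform annotation and RefSeq: 21789 probe sets had 1 symbol, 1621 several and 12147 none, and only those with 1 were used. The probe set with the highest mean stood for its gene (19938 genes). Genes above their array's 40th percentile on at least 3 arrays were tested (13182, 66.1%). limma 3.58.1 in R 4.3.3 (lmFit and eBayes, two-sided) fitted 3 group means to 9 arrays with 6 residual degrees of freedom. The scripts were tested on simulated data.

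All 34 listed genes are named; from each other list, at most 4 called genes, those that changed most, per direction and comparison, plus Myc, Mycn, Lin28a, Lin28b, Hif1a, Mbd2 and Txnip. Members and lists were chosen with earlier results of these data known. Alternatives changed the filter, normalization, probe set rule, prior and replicate block, and left out each array in turn.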

Additional observations from a re-analysis of the deposited data

How the results depend on the processing

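Each result was recomputed under 18 alternatives, 1 of them, the probe set at each gene's own location, chosen after seeing the data. Of the members called, 5 of 7 for let-7c, 11 of 16 for miR-294 (each against mock) and 12 of 15 between the mimics passed in every alternative that could test them, while 6, 4 and 4 members not called passed in some. The 5 for let-7c include Eno2, which was dim and passed the filter mainly through its let-7c arrays. Leaving out 1 array at a time gave 5 to 8, 12 to 17 and 12 to 14 members called, and 2694 to 3845, 4515 to 5739 and 6036 to 6600 genes called overall. The members' median difference then ranged from 0.0417 to 0.0840 for let-7c minus mock, from 0.0770 to 0.109 for miR-294 minus mock and from -0.00649 to 0.0701 for let-7c minus miR-294, the last below 0 only without let-7c replicate 1. Centring on the 75th percentile moved the miR-294 minus mock median to 0.114, against 0.09. The let-7c minus miR-294 median, 0.04 as reported, was -5e-07 with the stricter filter and 0.0727 both with the mean of probe sets and with the probe set at each gene's location. The cause was not tested, except that the stricter filter tests 28 members and the last 2 settings use other values for Hk1. Same-numbered arrays were compared for pairing: their deviations from the group means correlated between 0.0285 and 0.418, 8 of 9 pairs above 0.1, and 8 of 9 arrays correlated best with their own number. The design as described names no batch and the labels do not say that the numbers mark pairs, so the main fit left the numbers out. Every same-numbered correlation was above 0, so the main p-values leave out a possible effect shared by same-numbered arrays. With the replicate number as a block, the members called were 11 with let-7c (36.7%, against 34.6% of all genes), 19 with miR-294 (63.3%, against 46.9%) and 16 between the mimics (53.3%, against 54.9%); Pfkl then passed with let-7c (adjusted p = 0.00618) and with miR-294 (0.00259). Dim genes such as Eno2 are limited by signal near background.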

Other observations

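Pdha1, the catalytic subunit of pyruvate dehydrogenase that the Pdk kinases phosphorylate, was singled out after its values were seen. It was 0.16 higher with miR-294 than in mock (limma adjusted p = 0.0078).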
